A study of Mus musculus with 15 samples.

Results

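JS1 cells that overexpressed XPO4 and received TGFβ were compared with untreated JS1 cells that carried the empty vector. Each side had 4 RNA-seq libraries, so 8 of the 15 libraries of the series were compared, chosen by their titles and joined by gene identifier across the 2 deposited tables. The other libraries, 4 of the empty vector with TGFβ and 3 of XPO4 without it, gave the single effects set beside the combined one. JS1 is a mouse hepatic stellate cell line, labelled as TLR4-/- cells that express wild-type TLR4, a background that all 4 groups share. The dose and duration of TGFβ and the species of the XPO4 construct are not given in the sources used here. Nothing states that the libraries came from separate cultures, so p-values measure the spread between libraries, which may be technical. XPO4 and TGFβ both differ between the groups, and the TGFβ libraries are in one table and the baseline libraries in the other, so treatment and table cannot be told apart.

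Stellate cells store vitamin A in the healthy liver and turn into contractile, matrix-producing myofibroblasts in fibrosis. TGFβ drives that change: its receptor kinases phosphorylate Smad2 and Smad3, which enter the nucleus with Smad4 and induce matrix genes, contractile genes and feedback inhibitors. Exportin-4, the product of Xpo4, is a nuclear transport receptor known to carry Smad3 and the translation factor eIF5A out of the nucleus. The comparison asks which responses to TGFβ remain and which cancel when the construct and TGFβ are both present.

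Values are FPKM, fragments scaled for transcript length and library size. They summed to between 480030 and 526338 per library, and 11829 to 11971 genes reached 1 FPKM. Mitochondrially encoded genes held 2.84% to 4.10% of the sum in the XPO4 plus TGFβ libraries and 3.24% to 4.58% in the empty-vector baseline libraries. Among stellate markers, Vim measured 2660.1 ± 387 FPKM with XPO4 plus TGFβ and 2446 ± 360.0 FPKM with the empty vector at baseline, and Hand2 39.1 ± 6.42 and 43.0 ± 5.94 FPKM (SD, n = 4 each), while Lrat, the vitamin A esterifying enzyme of quiescent cells, was listed at 0 in both groups. Hepatocyte markers summed to at most 1.38 FPKM in any library of either group, with Alb listed at 0. The 16 macrophage markers summed to 38.7 to 46.3 FPKM with XPO4 plus TGFβ and 28.9 to 31.1 FPKM with the empty vector at baseline, with the defining Emr1, C1qa, C1qb and C1qc listed at 0 in both groups. The 12 endothelial markers summed to 82.0 to 123 FPKM with XPO4 plus TGFβ and 37.6 to 68.2 FPKM with the empty vector at baseline, with Tie1 listed at 0 in both groups. The 9 cholangiocyte markers summed to 360 to 427 FPKM with XPO4 plus TGFβ and 581 to 640 FPKM with the empty vector at baseline, with Epcam listed at 0 in both groups.

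Xpo4 itself (chr14:57577521-57665430 on the minus strand, GRCm38, GENCODE M21) was listed at 15.02, 12.8, 16.2 and 14.5 FPKM in the XPO4 plus TGFβ libraries, against 6.83, 9.33, 8.18 and 6.09 FPKM in the empty-vector baseline libraries. Every XPO4 plus TGFβ library lay above every empty-vector library. The means were 14.6 ± 1.42 and 7.61 ± 1.44 FPKM (SD, n = 4 each). Their ratio was 1.92, with an exact two-sided permutation p of 0.0286, the smallest that 4 against 4 allows. On the log2(FPKM + 1) scale, used for every change below, the difference was 0.87 (SE 0.16, limma adjusted p = 0.0024).

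Genes were tested where the 8 compared libraries averaged 1 FPKM or more. A gene that averaged under 1 FPKM in 1 of the 2 groups could pass only through the other group. The filter left 11943 genes. Of these, 680 rose and 414 fell with XPO4 plus TGFβ, which is 5.69% and 3.47% of the genes tested and 9.16% in either direction (limma, Benjamini-Hochberg adjusted p under 0.05). A change past 2-fold was reached by 214 of the rises and 33 of the falls. Groups did not overlap in 1638 genes, 13.7% of those tested, with XPO4 plus TGFβ higher in 7.75% and lower in 5.97%. The median change over all tested genes was -0.01. Against the same empty-vector libraries, TGFβ alone raised 147 genes (1.23%) and lowered 65 (0.544%), 1.78% in either direction, and XPO4 alone raised 368 (3.08%) and lowered 111 (0.929%), 4.01% in either direction. Against the empty vector with TGFβ, XPO4 plus TGFβ was higher in 449 genes (3.76%) and lower in 227 (1.9%), 5.66% in either direction. That split of 449 and 227 became 428 and 346 with quantile normalization, and 378 and 348 on the TPM scale, and the combined split of 680 and 414 became 659 and 517, and 625 and 547, on the same scales. No gene departed from the sum of the single effects at an adjusted p under 0.05 (limma, smallest adjusted p = 0.266), 336 had an unadjusted p under 0.05, which is 2.81% of those tested, and 1 was called on the TPM scale or without empty-vector TGFβ library 1. When libraries of the 2 compared groups alone entered the fit, 545 rose and 266 fell. In 3 libraries, number 2 of XPO4 plus TGFβ and of both empty-vector groups, low values showed no clear step, the spacing that single reads leave in them, and the mitochondrially encoded share was the highest of the group. Without all 3, a choice made after seeing the data, 617 rose and 365 fell in the combined comparison.

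The 212 genes called with TGFβ alone were followed into the combined state. A response was called kept where the gene was also called with XPO4 plus TGFβ in the same direction, and reversed where it was called in the other. It was called offset where the combined effect was not called and XPO4 plus TGFβ differed from the empty vector with TGFβ against the TGFβ direction, and unresolved otherwise. By these rules 143 responses were kept (107 rises and 36 falls), 34 were offset (21 rises and 13 falls), 8 falls were reversed and 27 were unresolved. Both effects were measured against the same 4 empty-vector libraries, so these counts describe the libraries and carry no test of their own. A TGFβ rise from under 1 FPKM at baseline was tested only where the combined state was high enough to pass the filter. The filter thus favoured kept over offset rises, as for Ctsw, Adam12, Adamtsl3, Crispld2 and Postn. With no filter on low values, 125 responses were kept, 34 offset and 8 reversed. The counts moved with the fit. Within the 2 groups of each contrast alone, 65 were kept, 7 offset and 4 reversed. Without empty-vector TGFβ library 1 the counts were 78, 13 and 5. Without the 3 libraries that showed no clear step, 88 of 141 were kept, 24 offset and 8 reversed. The class stayed the same under each of the 26 alternatives that tested the gene for 56 kept, 6 offset and 2 reversed genes.

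**Figure D1:**
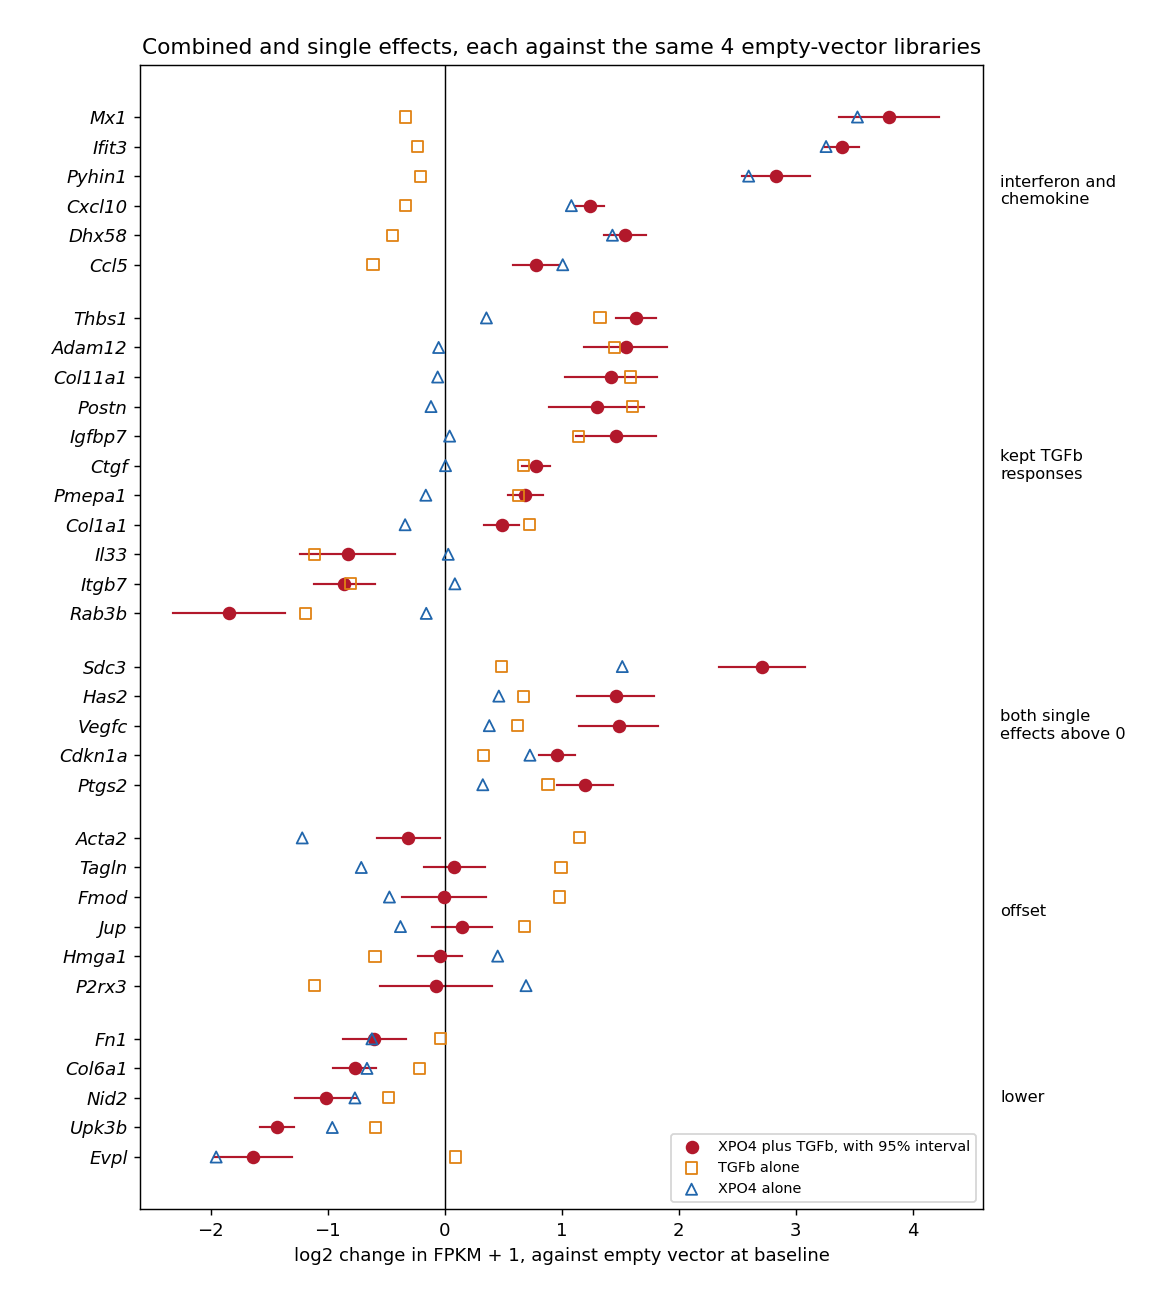
Log2 change in FPKM + 1 against the empty vector at baseline for XPO4 plus TGFβ (red circles, with the 95% interval of the fit), TGFβ alone (open squares) and XPO4 alone (open triangles), for genes named in the text. For Thbs1 and Ctgf the red circle lies above the square, for Acta2, Tagln and Fmod it lies near or below 0 while the square is near 1, and for Cxcl10, Dhx58 and Ccl5 the square is below 0 and the circle above it.

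Thbs1, a target of TGFβ signalling, was a kept rise. It encodes thrombospondin-1, a matrix protein that activates latent TGFβ, and was listed at 53.6, 45.1, 48.8 and 46.7 FPKM with XPO4 plus TGFβ, 35.6, 43.7, 39.4 and 37.3 FPKM with the empty vector and TGFβ, and 13.8, 16.2, 15.4 and 14.4 FPKM with the empty vector at baseline. Every library of the combined state lay above all those of the other 2 groups. The combined change was 1.64 (SE 0.08, limma adjusted p = 1.71e-09), TGFβ alone gave 1.33, and the level with XPO4 plus TGFβ exceeded that of the empty vector with TGFβ by 0.31 (limma adjusted p = 0.0346). That last call ended with quantile normalization, on the TPM scale, within the 2 groups alone, and without XPO4 plus TGFβ library 0, 2 or 3 or empty-vector TGFβ library 0, 2 or 3.

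Of 27 tested SMAD targets and other early TGFβ genes, 16 rose (59.3%) and 1 fell (3.7%) with XPO4 plus TGFβ. Over all tested genes the shares were 5.69% and 3.47%. The median change of the list was 0.47. With TGFβ alone 9 rose and 0 fell, beside 1.23% and 0.544% of all tested genes. The median was 0.24, and all 9 of those rises were kept. Among the 9, the TGFβ calls of Cyr61, Has2 and Tsc22d1 all ended within the 2 groups alone and without XPO4 plus TGFβ library 0, empty-vector TGFβ library 0 or 1, or empty-vector baseline library 1 or 2. Ctgf, the connective tissue growth factor, averaged 1220.4 ± 46.2 FPKM with XPO4 plus TGFβ, 1133 ± 67.1 FPKM with the empty vector and TGFβ, and 708 ± 22.2 FPKM with the empty vector at baseline (SD, n = 4 each). Its combined change of 0.78 and its TGFβ change of 0.68 were both called, and the 2 TGFβ groups differed by 0.11 (limma adjusted p = 0.373). Pmepa1, a feedback inhibitor of SMAD signalling, changed by 0.69 with XPO4 plus TGFβ and by 0.63 with TGFβ alone. Adam12, a membrane metalloprotease of activated stellate cells, rose to 2.75, 1.97, 3.31 and 2.14 FPKM with XPO4 plus TGFβ, against 0.210, 0.152, 0.305 and 0.138 FPKM with the empty vector at baseline. No library of one group overlapped the other, and the empty vector with TGFβ measured 2.30 ± 0.361 FPKM (SD, n = 4). Adam12 passed the filter of 1 FPKM only through the XPO4 plus TGFβ libraries, so its combined rise was favoured by the filter.

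Some members of that list were called in the combined state and not with TGFβ alone. Smad7, the inhibitory SMAD, averaged 21.5 ± 2.32 FPKM with XPO4 plus TGFβ and 14.6 ± 0.529 FPKM with the empty vector at baseline (combined change 0.52, limma adjusted p = 0.00223; TGFβ alone 0.15, adjusted p = 0.654). Tgif1, a SMAD corepressor, changed by 0.59 with XPO4 plus TGFβ and by 0.20 with TGFβ alone. In both genes the combined level exceeded that of the empty vector with TGFβ (0.38 for Smad7 and 0.39 for Tgif1, limma adjusted p = 0.0323 and 0.0101). For Smad7 this call ended on the TPM scale, within the 2 groups alone, and without XPO4 plus TGFβ library 0, 1 or 3 or empty-vector TGFβ library 1, 2 or 3.

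TGFβ ligands, receptors and SMAD proteins held calls in both directions. Of 23 tested, 3 rose and 3 fell, 13% each way beside 5.69% and 3.47% of all tested genes, with a median of -0.02, and the 3 that fell became 1 without XPO4 plus TGFβ library 1 or 3 or empty-vector library 0, 1 or 2. The rises were Thbs1, Eng and Acvr1. Eng, the TGFβ co-receptor endoglin, was listed at 102, 122, 80.5 and 99.1 FPKM with XPO4 plus TGFβ, against 41.7, 46.4, 34.8 and 65.1 FPKM with the empty vector at baseline, groups that did not overlap (combined change 1.11, limma adjusted p = 0.0012). Eng is also an endothelial marker and made up most of that marker sum in both groups. Acvr1, a type I receptor kinase, changed by 0.44. Smad3, the TGFβ effector that exportin-4 carries, fell to 18.6 ± 2.07 FPKM with XPO4 plus TGFβ, against 24.9 ± 1.38 FPKM with the empty vector at baseline (SD, n = 4 each; -0.41, limma adjusted p = 0.00998). Tgfb1, the ligand itself, measured 28.5 ± 2.37 and 28.0 ± 3.96 FPKM (limma adjusted p = 0.908).

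Among all 212 TGFβ responses, the largest kept rise by size was Ctsw, the lysosomal protease cathepsin W, listed at 4.16, 7.89, 3.16 and 6.97 FPKM with XPO4 plus TGFβ, 6.94, 4.85, 5.08 and 7.17 FPKM with the empty vector and TGFβ, and 0.218, 0.207, 0.182 and 0 FPKM with the empty vector at baseline. Both TGFβ groups lay well above the baseline libraries and overlapped each other. Igfbp7, a secreted insulin-like growth factor binding protein, averaged 102 ± 16.5 FPKM with XPO4 plus TGFβ and 36.1 ± 5.52 FPKM with the empty vector at baseline (SD, n = 4 each), a change of 1.47 beside 1.14 with TGFβ alone. Ctla2a, an inhibitor of cathepsins, changed by 1.16 and 1.27, Crispld2 by 1.06 and 1.32, and Adamtsl3, a secreted ADAMTS-like protein, by 1.52 and 1.23, in each case combined effect first and TGFβ alone second. The TGFβ call of Adamtsl3 ended without empty-vector TGFβ library 1. Ctsw, Crispld2 and Adamtsl3 passed the filter of 1 FPKM only through the XPO4 plus TGFβ libraries, so their kept class was favoured by the filter.

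Of the 107 kept rises, 10 were higher still with XPO4 plus TGFβ than with the empty vector and TGFβ, and 1 was lower. Among the 10 was Has2, the hyaluronan synthase of activated stellate cells, listed at 6.66, 6.01, 8.86 and 5.83 FPKM with XPO4 plus TGFβ, 3.56, 3.36, 4.55 and 2.67 FPKM with the empty vector and TGFβ, 3.03, 2.68 and 2.94 FPKM with XPO4 at baseline and 2.29, 1.61, 1.4996 and 1.93 FPKM with the empty vector at baseline. The combined libraries lay above all others. Has2 changed by 1.46 in the combined state (limma adjusted p = 8.75e-06) and by 0.67 with TGFβ alone, and the 2 TGFβ groups differed by 0.79 (limma adjusted p = 0.00459). Its call with TGFβ alone ended when XPO4 plus TGFβ library 0, empty-vector TGFβ library 0, 1 or 2, any XPO4 baseline library or empty-vector baseline library 1, 2 or 3 was left out. It also ended within the 2 groups alone and with no filter on low values. Cdkn1a, the cell cycle inhibitor p21, and Atf3, a stress-induced transcription factor, were also among the 10, with combined changes of 0.96 and 0.86 beside TGFβ changes of 0.33 and 0.35 and construct changes at baseline of 0.73 and 0.66. The calls of Cdkn1a and Atf3 with TGFβ alone ended within the 2 groups alone. That of Cdkn1a also ended with no intensity trend, and without empty-vector TGFβ library 0, 1 or 2 or empty-vector baseline library 1, 2 or 3.

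Kept falls were led by Rab3b and Sbsn. Rab3b, a small GTPase of vesicle traffic, was listed at 1.47, 1.43, 2.28 and 3.27 FPKM with XPO4 plus TGFβ, against 11.7, 9.93, 5.96 and 13.3 FPKM with the empty vector at baseline, groups that did not overlap (combined change -1.84, TGFβ alone -1.19). Sbsn, the epithelial secreted protein suprabasin, changed by -1.68 in the combined state and -0.97 with TGFβ alone, and was lower with XPO4 plus TGFβ than with the empty vector and TGFβ (difference -0.71, limma adjusted p = 0.00813). Itgb7, an integrin chain, fell by a like amount in both (-0.86 and -0.80). Il33, an alarmin cytokine, averaged 2.58 ± 0.709 FPKM with XPO4 plus TGFβ, 1.97 ± 0.716 FPKM with the empty vector and TGFβ, and 5.28 ± 0.675 FPKM with the empty vector at baseline. Ccnd1, which encodes cyclin D1, was the 1 kept fall that stood higher with XPO4 plus TGFβ than with the empty vector and TGFβ: it averaged 123 ± 6.67 FPKM in the combined state, 93.0 ± 6.49 FPKM with TGFβ alone, 180.4 ± 7.83 FPKM with XPO4 alone (n = 3) and 148 ± 6.60 FPKM with the empty vector at baseline.

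Acta2 and Tagln, the contractile genes with the largest response to TGFβ alone, were offset in the combined state. Acta2, smooth muscle α-actin, the usual sign of stellate cell activation (chr19:34241090-34255590 on the minus strand, GRCm38), was listed at 14.2, 17.4, 13.2 and 18.9 FPKM with XPO4 plus TGFβ, 50.7, 45.0, 41.6 and 44.1 FPKM with the empty vector and TGFβ, 6.39, 8.01 and 9.69 FPKM with XPO4 at baseline and 21.4, 18.8, 18.9 and 20.0 FPKM with the empty vector at baseline. The libraries of the empty vector with TGFβ lay above all others and those of XPO4 at baseline below all others, while the highest library of the combined state reached the lowest ones of the empty vector at baseline. TGFβ alone raised Acta2 by 1.16 (SE 0.12, limma adjusted p = 1.27e-04), and the combined change was -0.31 (SE 0.12, limma adjusted p = 0.157). XPO4 plus TGFβ stood below the empty vector with TGFβ (difference -1.46, limma adjusted p = 7.48e-07). The change with XPO4 alone was -1.22. Within the XPO4 libraries Acta2 averaged 8.03 FPKM at baseline and 15.9 FPKM with TGFβ, so offset here does not mean that the XPO4 groups were alike. The departure from the sum of the single effects, -0.25, was not called.

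Tagln, which encodes the actin-binding protein SM22, was listed at 104, 125, 89.4 and 115 FPKM with XPO4 plus TGFβ, 229, 234, 179 and 178 FPKM with the empty vector and TGFβ, 57.4, 70.6 and 57.7 FPKM with XPO4 at baseline and 114, 96.4, 90.9 and 107 FPKM with the empty vector at baseline. As for Acta2, the combined state overlapped the empty vector at baseline. The combined change was 0.08 (limma adjusted p = 0.782), with 0.99 for TGFβ alone, -0.71 for XPO4 alone and -0.91 for XPO4 under TGFβ. Within the XPO4 libraries Tagln averaged 61.9 FPKM at baseline and 108 FPKM with TGFβ. Its departure from the sum, -0.20, was not called. Over the 21 tested contractile genes, 6 rose and 0 fell with TGFβ alone, beside 1.23% and 0.544% of all tested genes. Of these 6 rises, 2 were kept, 2 offset and 2 unresolved. In the combined state 2 rose (9.52%) and 1 fell (4.76%), beside 5.69% and 3.47% of all tested genes. The combined median was 0.03 (-0.003 on the TPM scale, where it changed sign). The 2 rises were Csrp1, an actin-bundling LIM protein (0.39), and tropomyosin 1, Tpm1 (0.34), whose call ended with quantile normalization. The count of rises was 5 without XPO4 plus TGFβ library 2, and the single fall ended without XPO4 plus TGFβ library 1 or 3 or empty-vector library 0 or 2.

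**Figure D2:**
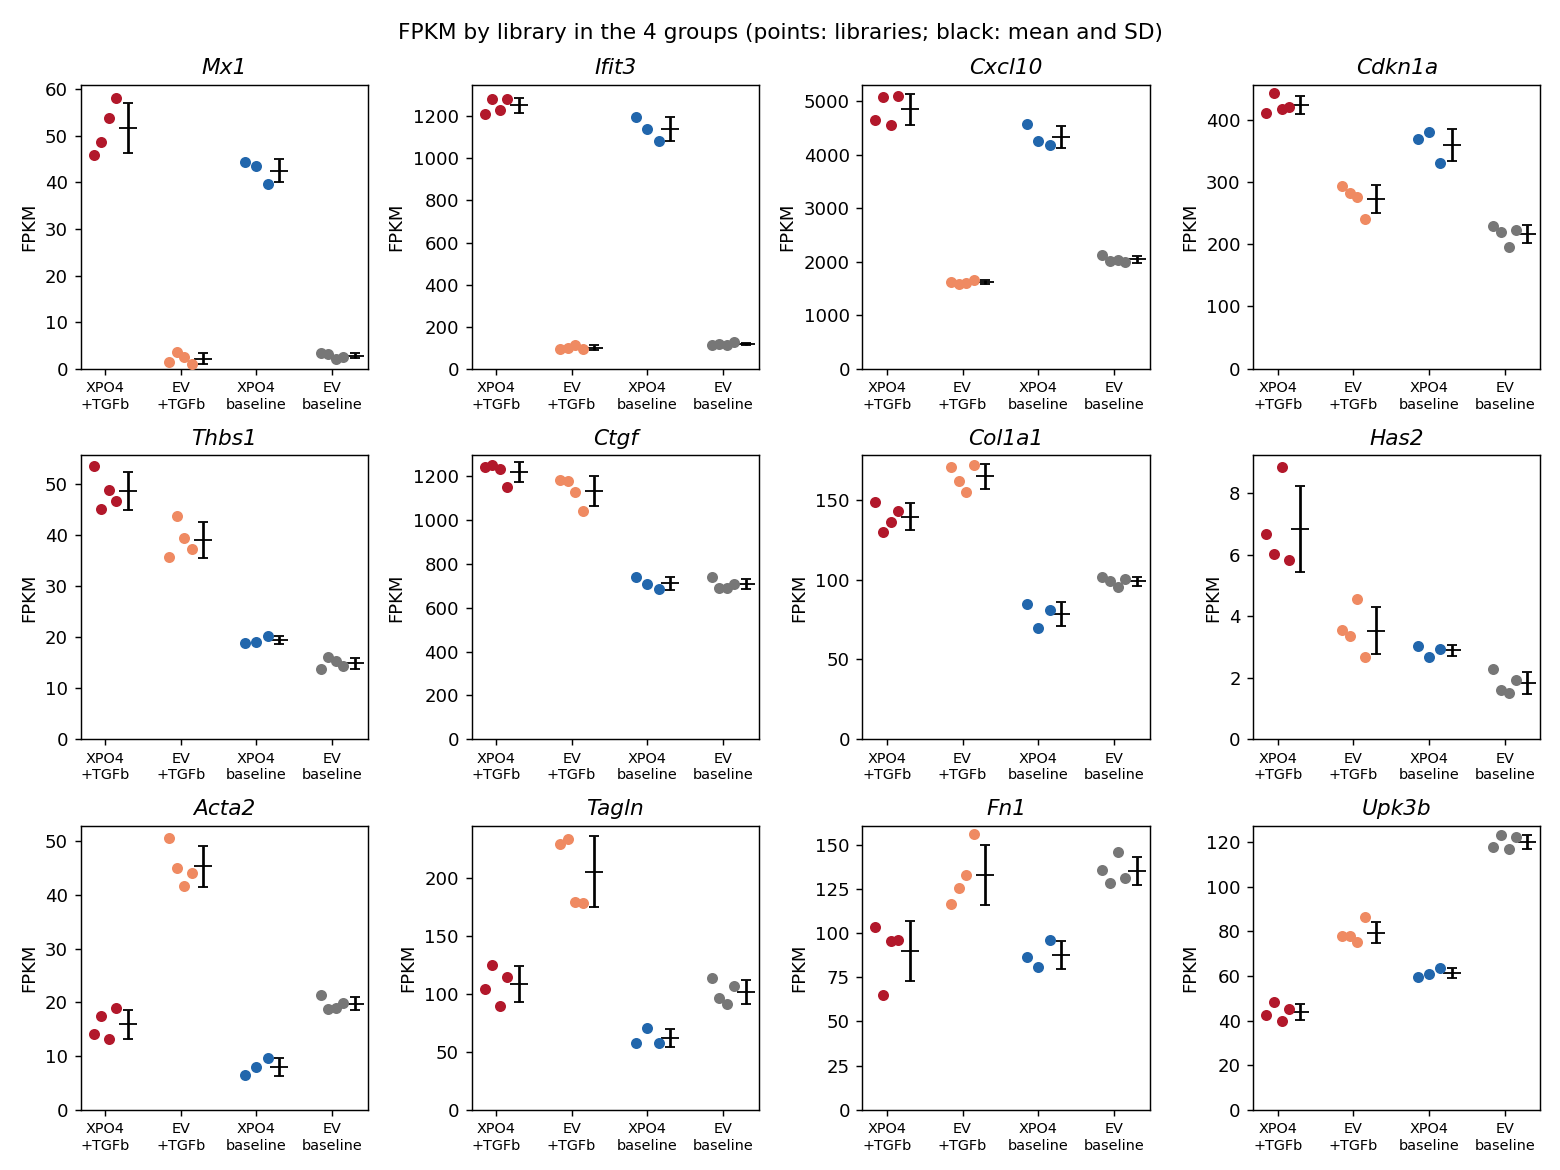
FPKM of 12 genes in each library (points) with the mean and SD (black), on linear axes from 0, for XPO4 plus TGFβ, the empty vector with TGFβ, XPO4 at baseline and the empty vector at baseline. Acta2 and Tagln are highest with the empty vector and TGFβ, Thbs1 and Has2 are highest in the combined state, and Mx1, Ifit3 and Cxcl10 are high in both XPO4 groups.

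Other offset responses ran in both directions. Fmod, the collagen-binding proteoglycan fibromodulin, averaged 1.16 ± 0.334 FPKM with XPO4 plus TGFβ, 3.29 ± 0.625 FPKM with the empty vector and TGFβ, 0.552 ± 0.0614 FPKM with XPO4 at baseline (n = 3) and 1.17 ± 0.305 FPKM with the empty vector at baseline. Hmga1, a chromatin architectural protein, fell with TGFβ alone (-0.60) and was listed at 369, 387, 334 and 406 FPKM with XPO4 plus TGFβ, 271, 260.4, 222 and 263 FPKM with the empty vector and TGFβ, 553, 505 and 519 FPKM with XPO4 at baseline and 389, 421, 329 and 401 FPKM with the empty vector at baseline. Its combined libraries lay among those of the empty vector at baseline, above those of the empty vector with TGFβ and below those of XPO4 at baseline. Jup, the junction protein plakoglobin, averaged 102 ± 12.6 FPKM with XPO4 plus TGFβ, 149 ± 27.7 FPKM with the empty vector and TGFβ, and 91.5 ± 8.37 FPKM with the empty vector at baseline. P2rx3, an ATP-gated channel, averaged 6.05 ± 1.03, 2.60 ± 1.42 and 6.40 ± 0.872 FPKM in the same order of groups. Both Jup and P2rx3 lost this class within the 2 groups alone. Jup also lost it without XPO4 plus TGFβ library 3 or empty-vector TGFβ library 1. P2rx3 also lost it without empty-vector TGFβ library 1 or 3 or empty-vector baseline library 2.

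The largest changes with TGFβ alone among the offset genes were in Gm13532 and 2500004C02Rik, predicted genes outside the rule for naming genes and added after their values were seen. Gm13532, annotated as a processed pseudogene, was listed at 44.5, 51.5, 13.5 and 39.1 FPKM with XPO4 plus TGFβ, 0, 11.3, 0 and 0 FPKM with the empty vector and TGFβ, 31.5, 30.3 and 11.7 FPKM with XPO4 at baseline and 39.5, 10.8, 51.5 and 35.9 FPKM with the empty vector at baseline. It was thus listed at 0 in 3 of the 4 libraries of the empty vector with TGFβ, the other one overlapped the empty-vector baseline, and reads of a pseudogene can be shared with its parent gene. Its TGFβ change was -4.05, its combined change 0.15 and its change with XPO4 alone -0.40, and the TGFβ call ended within the 2 groups alone. 2500004C02Rik was listed at 10.5, 6.005, 6.80 and 7.97 FPKM with XPO4 plus TGFβ, 1.64, 2.04, 3.92 and 2.49 FPKM with the empty vector and TGFβ, 7.23, 6.83 and 8.98 FPKM with XPO4 at baseline and 12.9, 6.13, 9.30 and 9.72 FPKM with the empty vector at baseline. The empty vector with TGFβ lay below all the others (TGFβ alone -1.58, combined -0.24, XPO4 alone -0.25), and the class held in all 26 alternatives. The departures from the sum, 4.597 for Gm13532 and 1.58 for 2500004C02Rik, did not pass (limma adjusted p = 0.681 and 0.518), and that of Acta2 was -0.25.

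All 8 reversed genes fell with TGFβ alone and rose in the combined state. Cxcl10, a chemokine that interferons induce, was listed at 4650.0, 5091, 4567 and 5094 FPKM with XPO4 plus TGFβ, 1621, 1584, 1606 and 1669 FPKM with the empty vector and TGFβ, 4571, 4259 and 4182 FPKM with XPO4 at baseline and 2134, 2024, 2032 and 1992 FPKM with the empty vector at baseline. Both XPO4 groups lay above both empty-vector groups, and the empty vector with TGFβ lay below all. Its combined change was 1.24 (limma adjusted p = 6.14e-10), beside -0.34 with TGFβ alone (limma adjusted p = 0.00427). Ccl5, a T cell chemokine, was listed at 310.3, 382, 328 and 412 FPKM with XPO4 plus TGFβ, 141, 117, 143 and 141 FPKM with the empty vector and TGFβ, 435, 406 and 412 FPKM with XPO4 at baseline and 205, 191, 216 and 216 FPKM with the empty vector at baseline, with the XPO4 libraries again above all others and those of the empty vector with TGFβ below all others. Egr1, an immediate early transcription factor, averaged 70.5 ± 5.50 FPKM with XPO4 plus TGFβ, 37.7 ± 2.90 FPKM with the empty vector and TGFβ, 95.01 ± 3.02 FPKM with XPO4 at baseline (n = 3) and 52.96 ± 1.43 FPKM with the empty vector at baseline.

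The other reversed genes were the RNA sensor regulator Dhx58, the antiviral gene Oasl1, the DNA-sensing family member Ifi204, the purine enzyme gene Xdh and Shisa5. Their combined changes were 1.54, 1.07, 1.44, 0.41 and 0.87, beside -0.44, -0.49, -0.48, -0.36 and -0.25 with TGFβ alone, in the same order. With XPO4 alone the changes were 1.43, 1.23, 1.57, 0.70 and 0.96. Dhx58 averaged 90.3 FPKM with XPO4 plus TGFβ and 83.7 FPKM with XPO4 at baseline. Oasl1 averaged 460 and 515 FPKM in the same groups, Ifi204 106 and 116 FPKM, Xdh 20.6 and 25.4 FPKM and Shisa5 401 and 426 FPKM. Cxcl10 and Ccl5 belong to the chemokine list described below, and Oasl1, Ifi204 and Dhx58 to the interferon list. Calls with TGFβ alone ended for Oasl1 without empty-vector TGFβ library 1 or baseline library 0 or 1, and for Ifi204 without TGFβ library 1 or 3 or baseline library 2 or 3. Those of Xdh and Shisa5 ended when single libraries of the empty vector were left out, among them TGFβ libraries 1 and 3 and baseline libraries 0, 2 and 3 for both.

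Interferon-stimulated genes rose together. All 63 tested members of the 64-gene list rose, beside 5.69% of all tested genes, with a median change of 1.65. With XPO4 alone 63 also rose, beside 3.08% of all tested genes, with a median of 1.49. With TGFβ alone 0 rose and 3 fell, beside 1.23% and 0.544%, and the median was -0.10. Mx1, an antiviral GTPase, was listed at 45.9, 48.8, 53.9 and 58.1 FPKM with XPO4 plus TGFβ, 1.47, 3.60, 2.54 and 0.994 FPKM with the empty vector and TGFβ, 44.3, 43.6 and 39.7 FPKM with XPO4 at baseline and 3.37, 3.12, 2.21 and 2.49 FPKM with the empty vector at baseline. The combined change was 3.80 (SE 0.20, limma adjusted p = 3.74e-09). The libraries with XPO4 lay above all of those without it. Ifit3, which restricts viral RNA, averaged 1252 ± 37.6 FPKM with XPO4 plus TGFβ, 101 ± 9.99 FPKM with the empty vector and TGFβ, and 118 ± 6.65 FPKM with the empty vector at baseline (SD, n = 4 each), a combined change of 3.39 (limma adjusted p = 1.12e-13). Ifit3 has a near-identical copy in Ifit3b, and Tgtp1 in Tgtp2, so how the reads divide between such copies is uncertain.

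Interferons switch on such genes through a DNA element to which STAT and IRF proteins bind, whose core is a direct repeat of GAAA with 2 bases between the copies. That core was searched on both strands, overlaps allowed, in RefSeq promoters of GRCm38.p6, 250 bases before to 50 after the gene start. It occurred in 3.44% of all 32851 windows, in 3.91% of 8126 tested genes with a window, in 16.1% of 460 genes that rose and in 2.63% of 304 that fell. Among the interferon-stimulated list it occurred in 25 of 47 genes with a window (53.2%). Of the 12 largest rises among genes with an assigned name 8 had a window, and 4 of these held the core (Ifit3, Gbp2, Tgtp1 and Tgtp2) while Ms4a4d, Ifnb1, Sdc3 and Mpeg1 held none. The promoters of 3 genes are shown as examples that hold the core, Ifit3 and Gbp2 from those rises and Cxcl10 as the reversed gene with the largest combined level. Ifit3 lies at chr19:34583279-34583578 (plus strand), Gbp2 at chr3:142620413-142620712 (plus strand) and Cxcl10 at chr5:92348840-92349139 (minus strand). Each is written 5′ to 3′ on the strand of its gene, with matches to the core or its reverse complement in capitals.
Ifit3: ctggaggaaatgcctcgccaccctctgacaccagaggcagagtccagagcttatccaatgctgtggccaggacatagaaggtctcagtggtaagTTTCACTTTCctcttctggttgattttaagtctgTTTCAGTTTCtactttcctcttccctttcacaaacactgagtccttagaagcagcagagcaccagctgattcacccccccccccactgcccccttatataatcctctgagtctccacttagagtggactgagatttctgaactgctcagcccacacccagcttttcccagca
Gbp2: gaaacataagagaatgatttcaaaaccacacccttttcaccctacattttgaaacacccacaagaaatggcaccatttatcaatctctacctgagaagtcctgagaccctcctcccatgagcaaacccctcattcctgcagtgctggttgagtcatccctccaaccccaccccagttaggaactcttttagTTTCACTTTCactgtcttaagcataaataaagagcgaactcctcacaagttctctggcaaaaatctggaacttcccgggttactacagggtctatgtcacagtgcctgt
Cxcl10: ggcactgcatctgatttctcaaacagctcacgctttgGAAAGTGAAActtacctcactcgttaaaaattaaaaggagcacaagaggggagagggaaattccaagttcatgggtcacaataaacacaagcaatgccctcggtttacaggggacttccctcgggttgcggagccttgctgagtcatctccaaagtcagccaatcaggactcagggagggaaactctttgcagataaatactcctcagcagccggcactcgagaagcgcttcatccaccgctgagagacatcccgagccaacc
Ifit3 held 2 matches, the nearer one with its first base 122 bases before the start, and Gbp2 and Cxcl10 held 1 each, at 59 and 213 bases before it. A match is a description of the letters and was not tested for binding.

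Among genes with an assigned name, the largest combined rises beside Mx1 and Ifit3 were Iigp1 (3.55), Tgtp2 (3.18) and Tgtp1 (3.03), immunity-related GTPases, Ms4a4d (3.03), the DNA-binding protein gene Pyhin1 (2.83), Ifnb1 (2.80), Sdc3 (2.71), Mpeg1 (2.58), Ly6a (2.52) and the guanylate-binding protein gene Gbp2 (2.51). Ifnb1, which encodes interferon beta, was listed at 7.74, 7.56, 6.53 and 12.2 FPKM with XPO4 plus TGFβ, against 0, 0.738, 0 and 0.827 FPKM with the empty vector at baseline. Ifna4, an interferon alpha gene, was listed at 1.43, 3.20, 4.997 and 2.56 FPKM with XPO4 plus TGFβ and at 0 in all 4 empty-vector baseline libraries, so no fold is given. Tlr3, the endosomal sensor of double-stranded RNA, changed by 2.14, the transcription factor gene Irf1 by 1.04 and the feedback inhibitor gene Socs1 by 1.19, and none of these was called with TGFβ alone. Of 24 tested interferon ligands, receptors and sensors 7 rose (29.2%, beside 5.69% of all tested genes) and 0 fell. Ifnb1 and Ifna4, like Sdc3, passed the filter of 1 FPKM only through the XPO4 plus TGFβ libraries. Their rises, and any part of the 29.2% that they make up, were therefore favoured by the filter. Mpeg1, which encodes perforin-2, stands in the macrophage list, at 13.1, 10.1, 18.8 and 13.4 FPKM with XPO4 plus TGFβ, against 1.36, 1.04, 1.57 and 1.79 FPKM with the empty vector at baseline. Of 5 tested macrophage markers it was the 1 that rose, and 1 fell, with a median of -0.13. The count of falls ran from 0 to 1 with libraries left out in turn.

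**Figure D3:**
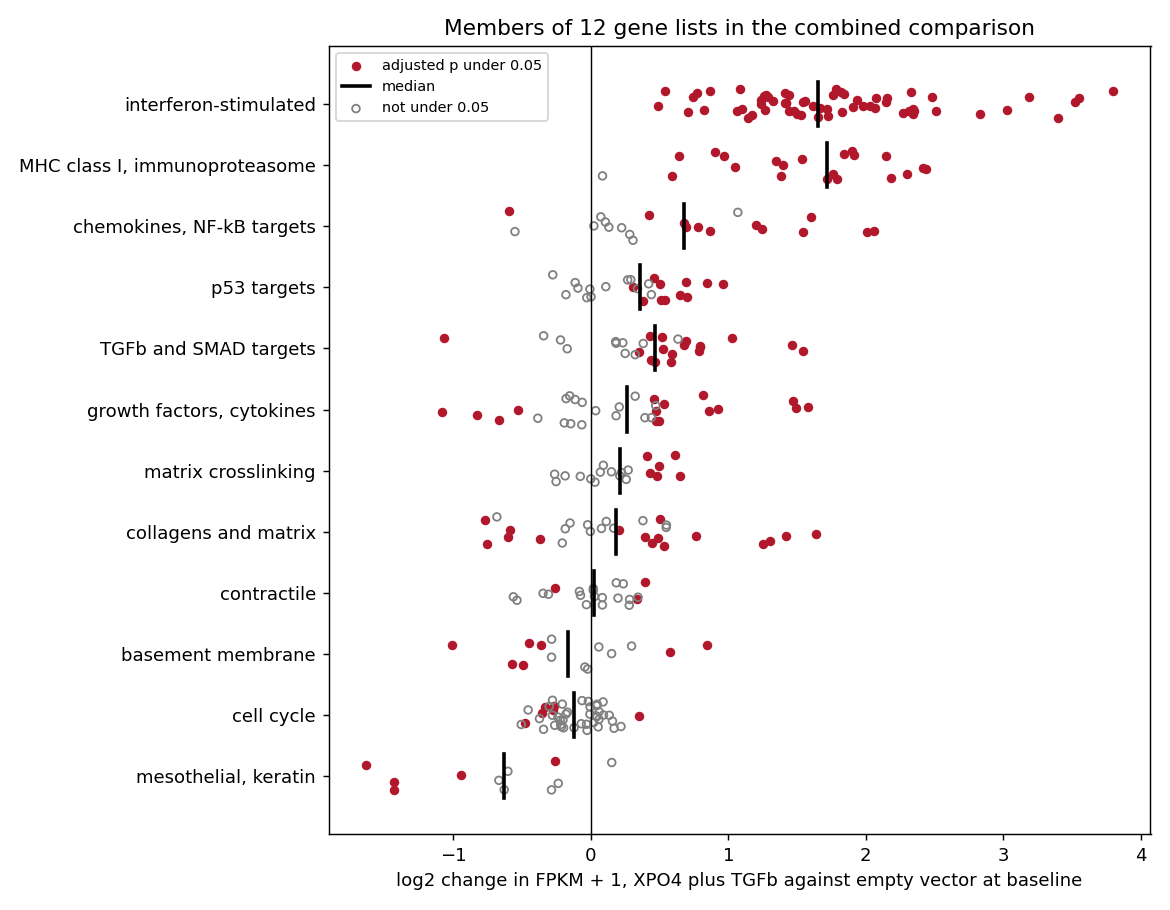
Log2 change in FPKM + 1 of the tested members of 12 gene lists, XPO4 plus TGFβ against the empty vector at baseline, with members at an adjusted p under 0.05 filled, the others open, and the median of each list as a bar. The interferon-stimulated and MHC class I lists lie to the right with medians of 1.65 and 1.72, and the mesothelial list to the left with a median of -0.63.

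Antigen presentation genes also rose. Of 21 MHC class I and immunoproteasome genes 20 rose (95.2%, beside 5.69% of all tested genes), with a median of 1.72. With TGFβ alone 0 were called, beside 1.78% of all tested genes. With XPO4 alone 16 rose, beside 3.08%, with a median of 1.43. H2-K1 averaged 1408 ± 139.5 FPKM with XPO4 plus TGFβ and 373 ± 42.6 FPKM with the empty vector at baseline (SD, n = 4 each; 1.91), the peptide transporter Tap1 84.6 ± 6.21 and 23.1 ± 3.04 FPKM (1.84), and Cd274, the checkpoint ligand PD-L1, 13.8 ± 2.33 and 2.22 ± 0.148 FPKM (2.19). Class I genes resemble each other closely in sequence, so their single levels are uncertain. Of 21 chemokine and NF-κB genes 11 rose (52.4%) and 1 fell (4.76%), beside 5.69% and 3.47% of all tested genes. Their median was 0.68, and with TGFβ alone 1 rose and 3 fell, beside 1.23% and 0.544% of all tested genes. The monocyte chemokines Ccl7 and Ccl2 changed by 2.01 and 1.55 in the combined state, and by -0.29 and -0.44 with TGFβ alone, where neither was called. Ptgs2, the inducible cyclooxygenase, was a kept TGFβ rise, listed at 184, 154.1, 222 and 162.8 FPKM with XPO4 plus TGFβ, 133, 148, 161 and 133 FPKM with the empty vector and TGFβ, and 74.1, 76.8, 91.1 and 68.7 FPKM with the empty vector at baseline. Both TGFβ groups lay above the baseline libraries and overlapped each other.

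Collagen and matrix genes split. Of 28 tested, 11 rose (39.3%) and 5 fell (17.9%) with XPO4 plus TGFβ, beside 5.69% and 3.47% of all tested genes. With TGFβ alone 11 rose and 1 fell, beside 1.23% and 0.544% of all tested genes. Relative to the empty vector with TGFβ, 2 were higher and 7 lower with XPO4 plus TGFβ, beside 3.76% and 1.9%. Of the 12 responses of the list to TGFβ alone, 10 were kept, 1 was offset and 1 was unresolved. Col1a1, the collagen I alpha 1 chain (chr11:94936224-94953042, plus strand), was listed at 149, 129.7, 136 and 143 FPKM with XPO4 plus TGFβ, 171, 161.6, 155.1 and 172 FPKM with the empty vector and TGFβ, 84.6, 69.9 and 81.0 FPKM with XPO4 at baseline and 101, 99.3, 95.2 and 101 FPKM with the empty vector at baseline. The 4 groups did not overlap, and the combined state lay between the empty vector with TGFβ above it and the empty vector at baseline below it. Its combined change was 0.49 (SE 0.07, limma adjusted p = 1.82e-04), beside 0.73 with TGFβ alone, and the difference between the 2 TGFβ groups, -0.24, did not pass (limma adjusted p = 0.0554). Col5a2, a fibril-nucleating collagen chain, changed by 0.53 and 0.64, the minor fibrillar collagen Col11a1 by 1.42 and 1.59, the matricellular protein gene Postn by 1.30 and 1.61, and the proteoglycan gene Bgn by 0.76 and 0.57, combined effect first.

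Fn1, which encodes fibronectin, was listed at 103, 65.1, 95.6 and 95.8 FPKM with XPO4 plus TGFβ, 116, 126, 133 and 156.1 FPKM with the empty vector and TGFβ, 86.4, 80.6 and 96.1 FPKM with XPO4 at baseline and 136, 128, 146 and 131 FPKM with the empty vector at baseline. The combined libraries lay below those of both empty-vector groups, lowest in library 1. The combined change was -0.60 (limma adjusted p = 0.00525), and TGFβ alone gave -0.03 (limma adjusted p = 0.975). The collagen VI chains Col6a1 and Col6a2 fell by a like amount (-0.77 and -0.75), with Col6a1 at 38.8 ± 2.51 FPKM with XPO4 plus TGFβ and 66.8 ± 1.79 FPKM with the empty vector at baseline (SD, n = 4 each). Spp1, which encodes osteopontin and is also a cholangiocyte marker, averaged 392 ± 29.7 and 589.7 ± 27.8 FPKM in the same groups (-0.59) and made up most of that marker sum. Col3a1 did not pass, at 21.1 ± 3.54 FPKM with XPO4 plus TGFβ and 24.3 ± 2.14 FPKM with the empty vector at baseline (limma adjusted p = 0.413). Col1a2 had a change of 0.50 (limma adjusted p = 0.044), a call that ended with quantile normalization, on the TPM scale, with the library set as a block, within the 2 groups alone and in most fits that left out 1 library of the 2 groups.

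Basement membrane genes were lower more often than higher. Of 14 tested 5 fell (35.7%) and 2 rose (14.3%), beside 3.47% and 5.69% of all tested genes. The median was -0.17, and with TGFβ alone 1 rose and 0 fell, beside 1.23% and 0.544% of all tested genes. The linker proteins nidogen 2 and nidogen 1, Nid2 and Nid1, changed by -1.01 and -0.57, and the collagen IV chain genes Col4a1 and Col4a6 by -0.36 and -0.50. Nid2 averaged 6.35 ± 1.33 FPKM with XPO4 plus TGFβ, 9.51 ± 0.934 FPKM with the empty vector and TGFβ, and 13.7 ± 0.904 FPKM with the empty vector at baseline (SD, n = 4 each). The rises were the laminin chain gene Lamb3 (0.84, a kept TGFβ rise) and Agrn, the proteoglycan agrin (0.58). Of 19 matrix crosslinking enzymes 6 rose (31.6%), among them the lysyl oxidase family members Loxl3 (0.65) and Loxl1 (0.48). The 6 rises became 3 without XPO4 plus TGFβ library 1 or 3 or empty-vector library 0, 1 or 3. Among 16 proteases and their inhibitors the membrane collagenase activator Mmp14 was a kept rise (0.39 beside 0.55), and the inhibitor gene Timp1 measured 14.5, 24.7, 13.4 and 16.3 FPKM with XPO4 plus TGFβ, against 17.0, 20.4, 15.3 and 15.5 FPKM with the empty vector at baseline, groups that overlapped (limma adjusted p = 0.988). That list had 4 rises (25%) and 1 fall (6.25%). It had 2 rises without XPO4 plus TGFβ library 3 or empty-vector library 0, and 2 falls without XPO4 plus TGFβ library 2 or empty-vector library 1.

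Growth factors and p53 targets rose in part. Of 30 growth factors and cytokines 11 rose (36.7%) and 4 fell (13.3%), beside 5.69% and 3.47% of all tested genes. With TGFβ alone 6 of the 30 rose and 1 fell, beside 1.23% and 0.544% of all tested genes. Vegfc, the lymphatic growth factor, was listed at 11.9, 10.4, 7.37 and 9.45 FPKM with XPO4 plus TGFβ, 4.747, 5.59, 5.21 and 3.93 FPKM with the empty vector and TGFβ, 2.90, 4.25 and 4.89 FPKM with XPO4 at baseline and 2.96, 3.22, 2.44 and 2.60 FPKM with the empty vector at baseline. The combined libraries lay above all others (combined change 1.49, limma adjusted p = 9.32e-06), while neither TGFβ alone (0.62, adjusted p = 0.0655) nor XPO4 alone (0.38, adjusted p = 0.317) was called. Sdc3, a cell surface heparan sulfate proteoglycan, was also highest in all 4 combined libraries, at 7.93, 6.64, 5.75 and 6.42 FPKM with XPO4 plus TGFβ, 0.301, 1.23, 0.499 and 0.658 FPKM with the empty vector and TGFβ, 2.12, 2.38 and 2.54 FPKM with XPO4 at baseline and 0.153, 0.300, 0.0390 and 0.193 FPKM with the empty vector at baseline. In the fit of all 15 libraries neither Vegfc nor Sdc3 departed from the sum of its single effects (limma, smallest adjusted p over all genes = 0.266). Pdgfc, a mitogen of the PDGF family, was a kept rise (0.92 beside 0.83), and Igfbp4, another insulin-like growth factor binding protein, fell by a combined change of -0.67 with -0.15 for TGFβ alone. Of 24 p53 targets 11 rose (45.8%) and 0 fell (median 0.36), beside 5.69% and 3.47% of all tested genes. With TGFβ alone 1 of them rose and 0 fell, beside 1.23% and 0.544%. Cdkn1a averaged 423 ± 14.3 FPKM with XPO4 plus TGFβ and 217 ± 14.9 FPKM with the empty vector at baseline. Sesn2 changed by 0.70 and Mdm2 by 0.51 on the log2 scale. Of 35 stress response genes 8 rose (22.9%) and 1 fell (2.86%). The rises included Ddit3 (0.79) and Trib3 (0.65), regulators of the integrated stress response.

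Mesothelial and epithelial genes made up several of the largest falls. Upk3b, a uroplakin that marks mesothelium, was listed at 42.6, 48.1, 39.8 and 45.3 FPKM with XPO4 plus TGFβ, 78.0, 78.0, 75.4 and 86.3 FPKM with the empty vector and TGFβ, 59.4, 60.7 and 63.8 FPKM with XPO4 at baseline and 118, 123, 117 and 122 FPKM with the empty vector at baseline. The 4 groups did not overlap, and the combined state was lowest. Its combined change was -1.43 (SE 0.07, limma adjusted p = 9.96e-10), beside -0.59 with TGFβ alone and -0.96 with XPO4 alone, all of them called. Of 11 tested mesothelial and keratin genes 5 fell (45.5%) and 0 rose, beside 3.47% and 5.69% of all tested genes, with a median of -0.63. The 18 listed genes summed to 278 to 304 FPKM with XPO4 plus TGFβ and 402 to 446 FPKM with the empty vector at baseline. In a bulk sample fewer cells of a type and less RNA per cell cannot be told apart.

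Evpl, the desmosomal linker envoplakin, was listed at 1.53, 1.24, 0.655 and 1.005 FPKM with XPO4 plus TGFβ, 6.53, 6.14, 5.17 and 5.82 FPKM with the empty vector and TGFβ, 0.588, 0.733 and 0.704 FPKM with XPO4 at baseline and 6.44, 6.52, 4.28 and 4.96 FPKM with the empty vector at baseline. Both XPO4 groups lay below both empty-vector groups. Its combined change was -1.64, with 0.09 for TGFβ alone. Gpm6a, a membrane glycoprotein of mesothelium, changed by -1.44, Upk1b by -0.94, Gas1, a growth arrest protein, by -1.38, Smpd3, a sphingomyelinase, by -1.26, and Rasl11a, a small GTPase, by -1.23. Other falls among the 12 largest of genes with an assigned name were Ifi27l1 (-1.43), Crct1 (-1.34) and Tmem108 (-1.19). S100a14, also among them at -1.21, lost its call with a pseudocount of 0.1, with no filter on low values, within the 2 groups alone, and without XPO4 plus TGFβ library 0, 2 or 3, XPO4 baseline library 0 or any empty-vector baseline library.

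Shares of the remaining lists stand beside 5.69% higher and 3.47% lower over all tested genes. Of 45 cell cycle genes 1 rose (2.22%) and 5 fell (11.1%; median -0.12), with 3 falls without empty-vector library 0, while the 1 rise ended without XPO4 plus TGFβ library 1 or 3, empty-vector TGFβ library 1, XPO4 baseline library 2 or empty-vector baseline library 1, 2 or 3, and Ccnd1 and the centromere histone gene Cenpa changed by -0.27 and -0.48. Of 31 fatty acid and cholesterol synthesis genes 1 rose (3.23%) and 3 fell (9.68%), 5 without XPO4 plus TGFβ library 0, among them the desaturases Scd1 (-0.48) and Scd2 (-0.47), and the 1 rise ended without XPO4 plus TGFβ library 0 or 2 or empty-vector library 1 or 3. Of 29 glycolysis and hypoxia genes 2 rose (6.9%) and 0 fell, with 3 falls on the quantile or TPM scale and 1 or 2 when XPO4 plus TGFβ library 2 or empty-vector library 0, 1 or 2 was left out. Among 19 YAP target genes 5 rose (26.3%), including Ankrd1 (0.38) and Fstl1 (0.30). Among 8 genes of exportin-4, its cargo and nuclear transport, Xpo4 rose and 3 fell (37.5%), which became 1, Smad3, without XPO4 plus TGFβ library 0 or 3 or empty-vector library 0, 1 or 3. Eif5a averaged 1117 ± 97.9 FPKM with XPO4 plus TGFβ and 1322 ± 66.2 FPKM with the empty vector at baseline (-0.24, limma adjusted p = 0.0307, not called in those fits), and Eif5a2 did not pass (-0.25, limma adjusted p = 0.533).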

How the data were processed

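RNA-seq libraries were made from poly-A selected RNA with a strand-specific dUTP protocol, per the labels' protocols. The submitters' processing notes name CASAVA 1.8.2 and STAR 2.7.2b, and the builds mm10 and GRCh38 with no role. No source used here names the program behind the FPKM values that the authors deposited. Gene positions are those of GENCODE M21.

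The 2 tables, with 38277 genes, were joined on identifier. One limma 3.58.1 fit (R 4.3.3, intensity trend) of log2(FPKM + 1) covered all 15 libraries in 4 groups, for genes averaging 1 FPKM or more in the 8 compared libraries, with Benjamini-Hochberg adjustment over all tested genes. Log values understate the change of low genes. The fit was also run on simulated data with independent normal errors. Those data held no library-set or scaling differences, so that run says nothing of their effect on the calls. Read depth is unknown. In 11 libraries the step in low values was 0.859 to 1.09 times that of an empty-vector baseline library. This is a ratio of spacing, not of depth. Replicate numbers did not pair the libraries.

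Named genes were Xpo4, the 12 largest non-overlapping changes in each direction, up to 6 members of each of 26 lists by smallest p, a fixed set of fibrosis genes, and the largest TGFβ, offset and reversed responses, with predicted and clone-based names left out; 1 of them is not reported here. Members and lists were chosen with earlier results of these data known. Alternatives covered a pseudocount of 0.1 or 0.5, a floor of 5 FPKM or none, scaling by quantile, TPM or median, the 2 groups alone, a replicate block, a library-set block, no trend, and each library left out.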

Additional observations from a re-analysis of the deposited data

Results flagged for a closer look

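Of 125 groups of 4 libraries whose values are given, 9 held 1 library whose gap to the nearest of the others, as a share of the whole range, passed the 95% critical value of Dixon's test, and chance gives about 1 in 20. In the XPO4 plus TGFβ libraries, Vim measured 2086 FPKM in library 2 (others 2784 to 2927), Igfbp7 77.5 FPKM in library 2 (others 108 to 114), Ctgf 1152 FPKM in library 3 (others 1235 to 1250.0) and Col6a1 42.6 FPKM in library 3 (lowest of the others 37.3). In the empty vector with TGFβ, Ccl5 measured 116.5 FPKM in library 1 (others 141 to 143), and Gm13532 11.34 FPKM in library 1 (others listed at 0). In the empty vector at baseline, Spp1 measured 631.3 FPKM in library 3 (others 574 to 578), Eif5a 1223 FPKM in library 2 (others 1349 to 1358), and Ctsw was listed at 0 in library 3 (others 0.182 to 0.218). The combined calls of Ctgf, Ctsw, Igfbp7, Col6a1, Spp1 and Ccl5 stayed without each of these libraries, while that of Eif5a stayed without baseline library 2 and ended without others.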

How the results depend on the processing

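With only the 2 groups of each contrast in the fit, the combined effect lowered 266 genes (545 rose), TGFβ alone changed 103 (76 up and 27 down), XPO4 under TGFβ lowered 102, and 65 responses were kept, 7 offset and 4 reversed; that fit holds fewer libraries. Genes lower with XPO4 under TGFβ numbered 346 with quantile normalization and 348 on the TPM scale, where 1 gene departed from the sum. With each library left out in turn, 579 to 673 genes rose and 291 to 434 fell in the combined effect, TGFβ alone changed 109 to 243, and XPO4 under TGFβ raised 368 to 450 and lowered 150 to 261. Departures numbered 0 to 1, kept responses 78 to 149, offset 13 to 36, reversed 5 to 9 and unresolved 13 to 49, and the Xpo4 change was 0.78 to 0.96. Genes changed with TGFβ alone were 109 without empty-vector TGFβ library 1 (78 up and 31 down), 126 without baseline library 0 (94 and 32) and 141 each without baseline libraries 2 and 3; falls were 37 without TGFβ library 3 and 43, 42 and 39 without baseline libraries 1, 2 and 3. Kept responses were 86, 93 and 95 without baseline libraries 0, 2 and 3. Reversed ones were 5 without TGFβ library 1 or 3 or baseline library 0 or 3. Offset ones were 22, 13 and 18 without TGFβ libraries 0, 1 and 3, and 20 and 21 without baseline libraries 0 and 1. Falls of XPO4 under TGFβ were 150 without TGFβ library 3. Unresolved responses were 42, 49 and 45 without XPO4 plus TGFβ libraries 1, 2 and 3, 13 without TGFβ library 1, and 15, 17 and 16 without baseline libraries 0, 1 and 3. Beyond smaller fits, the cause was not tested.

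Signs turned only in genes that were not called. With libraries left out in turn, the combined change of Tgfb1 ran from -0.059 to 0.089, that of Fmod from -0.096 to 0.086, that of Hmga1 from -0.11 to 0.014, that of Gm13532 from -0.32 to 0.56 and that of Timp1 from -0.19 to 0.087. With the replicate block 706 genes rose and 476 fell; the call of Smad7 for XPO4 under TGFβ and the combined calls of Col1a2 (adjusted p = 0.0755) and S100a14 (0.073) ended under it. Correlations between same-numbered libraries ran from -0.04 to 0.30 over 4 pairs, 1 of them over 0.1, and 3 of 8 libraries correlated best with their own number, so the numbers were not treated as pairing the libraries. Over all 21 same-numbered pairs of the 4 groups 3 were over 0.1, all between libraries numbered 2 that showed no clear step. Same-numbered libraries also share 1 of 2 library sets, split by library code, and with the set as a block 691 genes rose and 446 fell. Without the 3 libraries that showed no clear step, chosen after seeing the data, TGFβ alone changed 141 genes and 88 responses were kept, and the changes of Tgfb1, Fmod and Timp1, none of them called, were -0.018, 0.0999 and 0.041.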
